A study of Mus musculus with 6 samples.

Results

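The alcohol dehydrogenases (Adh), aldehyde dehydrogenases (Aldh) and aldo-keto reductases (Akr) were examined in liver RNA-seq libraries from insulin-resistant (IR) mice. They were taken as the rows of the count table whose gene name begins with Aldh, Akr or Adh and goes on with a digit, without names marked as pseudogenes by -ps. The rule gave 44 of 54532 genes, with 6 Adh, 21 Aldh and 17 Akr genes, and all 44 were protein coding in GENCODE release 21 for mouse (build 38). The mice were male C57BL/6J, put on a high-fat diet (HFD) at 8 weeks of age for 6 weeks to make them IR, and fasted for 16 h. The IR insulin group (n = 3) then received insulin intraperitoneally at 0.75 units per kg, and the IR vehicle group (n = 3) received bovine serum albumin (BSA), the carrier of the insulin. Livers were collected 6 h later, and each library came from 1 mouse. All mice in the comparison were on the HFD, so it shows the response to insulin within IR and holds no lean or chow-fed reference.

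The 3 families handle alcohols, aldehydes and ketones. Alcohol dehydrogenases oxidise an alcohol to an aldehyde or ketone with NAD+, aldehyde dehydrogenases oxidise the aldehyde further to an acid, and most aldo-keto reductases run the opposite way, reducing a carbonyl group with NADPH. In liver they are known for clearing ethanol, formaldehyde and lipid aldehydes, for turning retinol into retinoic acid, for steps in the breakdown of amino acids, and for shaping the steroid rings of hormones and bile acids.

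The first 120 coding bases (GENCODE release 21) are shown for a pair of members rich in G and C and a pair with less, because 1 library departed from the others by GC content. Capitals mark G and C, which made up 71.7% of the stretch in Aldh2, 75.0% in Akr7a5, 44.2% in Akr1c6 and 51.7% in Akr1d1.
Aldh2: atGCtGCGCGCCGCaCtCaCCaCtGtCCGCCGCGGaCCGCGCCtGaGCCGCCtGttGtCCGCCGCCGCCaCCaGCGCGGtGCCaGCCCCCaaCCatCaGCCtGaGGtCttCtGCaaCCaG
Akr7a5: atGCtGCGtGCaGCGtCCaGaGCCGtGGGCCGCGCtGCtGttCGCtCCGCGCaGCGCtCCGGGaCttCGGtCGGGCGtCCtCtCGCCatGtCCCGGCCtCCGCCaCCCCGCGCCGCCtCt
Akr1c6: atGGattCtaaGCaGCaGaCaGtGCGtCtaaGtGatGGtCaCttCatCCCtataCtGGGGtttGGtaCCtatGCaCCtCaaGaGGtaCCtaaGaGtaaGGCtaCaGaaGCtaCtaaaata
Akr1d1: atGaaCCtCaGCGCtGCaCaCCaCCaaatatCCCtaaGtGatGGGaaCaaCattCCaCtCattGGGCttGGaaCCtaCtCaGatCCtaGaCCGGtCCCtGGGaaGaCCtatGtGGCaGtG

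The Akr1c genes are related in sequence, and some pairs among them are near copies. Of the 9 genes in this group, 8 had coding sequences of equal length (972 bases), and their 28 pairs were 71.1 to 96.2% identical position by position (median 74.0%). The closest pair, Akr1c12 and Akr1c13, differed at 37 of 972 coding bases, and 28.6% of the 50-base windows of either transcript also occurred in the other. Aldh1a1 and Aldh1a7, the closest Aldh pair among the measured genes, differed at 126 of 1506 coding bases (91.6% identity). Their first 120 coding bases are shown with the differing bases in capitals, 2 in the Akr1c pair and 10 in the Aldh1a pair.
Akr1c12: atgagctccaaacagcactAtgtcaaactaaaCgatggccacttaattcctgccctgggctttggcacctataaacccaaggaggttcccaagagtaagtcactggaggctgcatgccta
Akr1c13: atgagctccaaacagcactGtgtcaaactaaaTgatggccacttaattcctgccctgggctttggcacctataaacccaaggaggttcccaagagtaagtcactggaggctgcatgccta
Aldh1a1: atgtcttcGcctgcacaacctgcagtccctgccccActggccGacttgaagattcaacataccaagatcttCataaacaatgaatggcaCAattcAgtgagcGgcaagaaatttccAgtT
Aldh1a7: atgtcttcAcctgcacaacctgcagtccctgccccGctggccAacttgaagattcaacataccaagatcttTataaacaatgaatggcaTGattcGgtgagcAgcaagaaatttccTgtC

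Several members sit side by side in the genome. The 6 Adh genes lie within 237.7 kb of chromosome 3 (chr3:138217760-138455499), and 8 Akr1c genes with Akr1e1 lie within 560.2 kb of chromosome 13 (chr13:4049011-4609174). Akr1d1 is on chromosome 6 (chr6:37530173-37568815, plus strand) and Aldh2 on chromosome 5 (chr5:121566027-121593824, minus strand). Coordinates are of build 38, and each range covers the whole gene.

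The libraries held 18449986 to 21827619 counts, and 10 counts corresponded to 0.433 to 0.614 CPM (the count scaled to a common library size with TMM factors). Vehicle replicate 2 stood apart: 16470 genes had a count there, against 18389 to 18874 in the other 5 libraries, and it lay more than 0.5 (log2) above the median of the remaining libraries for 29.5% of 13367 genes and as far below for 33.8%. Vehicle replicate 3 did so for 17.4% and 18.5%, and the other 4 libraries for 5.22 to 9.08% in either direction. The 10 hepatocyte markers, 7 of them lower with insulin, summed to 80010 to 180300 CPM in vehicle and 67710 to 83350 CPM in insulin livers. Vehicle replicate 2 was highest, and Alb alone was at 138600 CPM there. Apob, Ttr, Trf and Serpina1a were also highest in that library, whereas Apoa1, Hnf4a and Tat were lowest in it. Pericentral markers (7 of 10 lower) ran in sum from 12880 to 19750 CPM in vehicle and from 10820 to 13230 CPM in insulin livers, and periportal markers (10 of 10 lower) from 7897 to 19510 and from 6441 to 8221 CPM, with vehicle replicate 3 highest. Erythroid markers, 5 of 5 tested lower and 4 of them at an unadjusted p under 0.05, summed to 413 to 1588 CPM in vehicle and 312 to 478 CPM in insulin livers. Of the 7 adipocyte markers, Adipoq, Plin1, Lep and Retn were at 0 to 0.087 CPM in every library and were not tested. The other 3 (Fabp4, Cidec and Cfd), all higher, carried the sum of 44.6 to 193 CPM in vehicle and 117 to 326 CPM in insulin livers. Bile duct markers, 4 of 5 tested higher, summed to 21.9 to 55.2 and 32.8 to 61.9 CPM. Endothelial markers, 8 of 8 lower, summed to 199.8 to 371.3 CPM in vehicle and 194.1 to 209.1 CPM in insulin livers, and 8 of 10 pancreas markers were at 0. The part of these differences in the results was not tested, and in bulk liver fewer cells of a type and less RNA per cell cannot be told apart.

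All 3 families were expressed in the IR liver, at levels that spanned more than 3 orders of magnitude. Of the 44 genes, 32 had enough counts to be tested (4 Adh, 15 Aldh and 13 Akr). The other 12 had 0 to 27 counts in any library: Adh6a, Adh6b, Akr1b7, Akr1c18, Akr1c21, Akr1cl, Aldh1a2, Aldh1a3, Aldh1l2, Aldh3a1, Aldh3b2 and Aldh3b3. Among them were Aldh1a2 and Aldh1a3, which make retinoic acid in other tissues, and Aldh3a1, known from the cornea. Aldh3b2 and Akr1cl had no count in any library. The pseudogene Adh6-ps1, outside the rule, had 238 to 431 counts.

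On the scale of CPM per kb of transcript, which allows levels of different genes to be compared, the most abundant member over the 6 libraries was Akr1c6 at a mean of 1050, followed by Adh1 at 768, Aldh1a1 at 659.6 and Aldh2 at 388. The mean of Akr1c6 was raised by vehicle replicate 2, at 3488 CPM before scaling by length. Its mean per kb was 1416 in vehicle and 685 in insulin livers, whereas Adh1 was at 774.5 and 761.5 CPM per kb, so Adh1 stood above Akr1c6 in insulin livers. Adh5, Akr1a1 and Aldh7a1 formed the next tier at 271, 259.6 and 205.6 CPM per kb. Aldh18a1, which makes a precursor of proline, was lowest of the tested members at 0.4 CPM per kb and 16 to 37 counts per library.

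**Figure D1:**
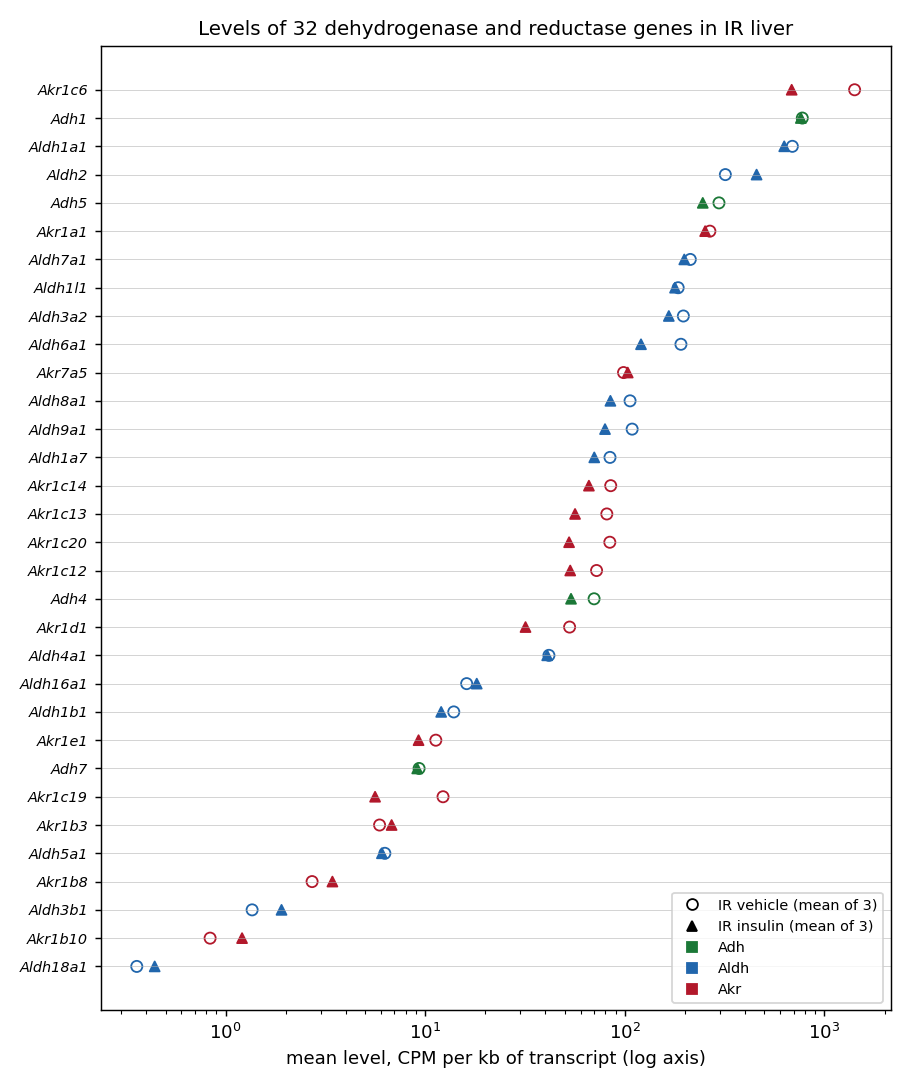
Mean level of the 32 tested members in CPM per kb of transcript (log axis), for IR vehicle (open circles) and IR insulin (filled triangles), 3 mice each, coloured by family. Akr1c6, Adh1, Aldh1a1 and Aldh2 stand highest, and for most members the 2 group means lie close together, with Akr1c6 and Akr1c19 among the widest apart.

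Insulin was compared with vehicle to ask whether hepatic transcript levels of these enzymes respond to the hormone in IR. By the quasi-likelihood test of edgeR, with Benjamini-Hochberg adjustment across 13377 genes, the smallest adjusted p among members was 0.852, and none was under 0.05. The background was the same, with 0% of 13377 genes called. At an unadjusted p under 0.05, 2 of 32 members were called and both were lower with insulin, namely Akr1d1 and Akr1c6, against 2.86% of all genes tested in either direction, 1.86% lower and 1% higher. The groups were fully separated for 2 members, Akr1c6 and Akr1c12, both lower with insulin. Over all genes, 6.04% were separated with insulin lower, and 6.25% with insulin higher, where no member was found. Each member count rests on 2 genes, and 2 of 32 separated genes are close to the background.

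In direction, 24 of the 32 tested members had a lower and 8 a higher fitted level with insulin, and the median log2 fold change was −0.17, beside −0.017 over all genes tested. The median was −0.15 for the 4 Adh, −0.10 for the 15 Aldh and −0.36 for the 13 Akr genes. All 4 Adh genes were on the lower side, but with upper-quartile scaling 2 of the 4 were on the higher side. Among Aldh genes 11 were lower and 4 higher, and without vehicle replicate 3 these were 8 and 8 of 16. Among Akr genes 9 were lower and 4 higher, and their median stayed below 0 under each of the 14 alternative fits, from −0.54 to −0.13. Without vehicle replicate 2 the Adh, Aldh and Akr medians were −0.020, −0.19 and −0.20.

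**Figure D2:**
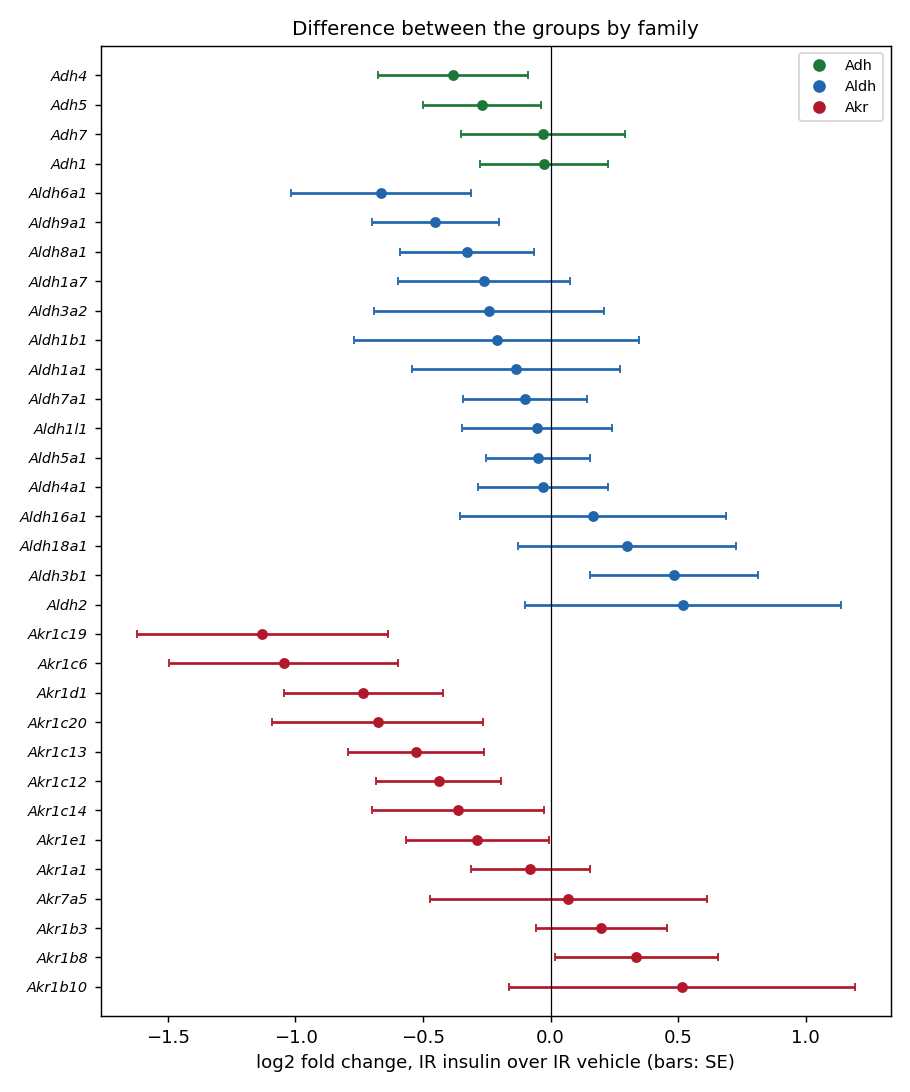
Log2 fold change of IR insulin over IR vehicle for each of the 32 tested members, by family, with bars of 1 SE from the edgeR quasi-likelihood fit (n = 3 mice per group). Within Akr the Akr1c genes and Akr1d1 lie to the left of 0 and the Akr1b genes to the right; none passed an adjusted p of 0.05.

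Akr1d1, the steroid 5β-reductase of bile acid synthesis and steroid hormone clearance, had the smallest unadjusted p. Its level was 106.9, 130 and 191.3 CPM in vehicle replicates 1, 2 and 3 and 72.6, 114.2 and 70.7 CPM in insulin replicates 1, 2 and 3. Insulin replicate 2 lay above vehicle replicate 1, so the groups overlapped. The log2 fold change was −0.73 ± 0.31 (SE, adjusted p of 0.852, unadjusted p of 0.0459, edgeR). Without vehicle replicate 2 it was −0.79 (unadjusted p of 0.0383 by edgeR), and without vehicle replicate 3, the highest library, it was −0.46 (p of 0.144). With an offset for GC content it was −0.57 (p of 0.162), and without insulin replicates 1, 2 and 3 it was −0.62, −0.99 and −0.60 (p of 0.157, 0.0262 and 0.160).

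The Akr1c genes encode hydroxysteroid dehydrogenases, which interconvert keto and hydroxy groups on steroids. Akr1c6, known as 17β-hydroxysteroid dehydrogenase type 5, was at 1193, 3488 and 1247 CPM in the vehicle livers and at 1018, 1050 and 801 CPM in the insulin livers. Every vehicle value exceeded every insulin value, but replicates 1 and 3 did so narrowly and vehicle replicate 2 was 3.32 times the median of the other 5 libraries. The log2 fold change was −1.05 ± 0.45 (SE, adjusted p of 0.852, unadjusted p of 0.0490, edgeR). Without vehicle replicate 2 it was −0.35 (unadjusted p of 0.147 by edgeR), and with an offset for GC content it was −0.70 (p of 0.0513). Leaving out an insulin liver gave −0.92 to −1.12 with p of 0.0903 to 0.141.

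Akr1c19 had the widest fitted difference in the group, from 26.0, 104.4 and 84.4 CPM in vehicle to 21.9, 41.7 and 34.5 CPM in insulin livers. Vehicle replicate 1 sat among the insulin values and the other 2 vehicle livers were above them. Its log2 fold change of −1.13 ± 0.49 (SE) came with an adjusted p of 0.852 and an unadjusted p of 0.0512 by edgeR. Without vehicle replicate 1 the estimate was −1.53 (unadjusted p of 0.00285 by edgeR), and without vehicle replicate 2 it was −0.75 (p of 0.159).

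The near copies Akr1c12 and Akr1c13 were highest in vehicle replicate 2. Akr1c12 was at 77.9, 116.9 and 78.2 CPM in vehicle and at 66.7, 74.6 and 60.2 CPM in insulin livers, and Akr1c13 was at 79.2, 135.4 and 93.0 CPM and at 65.9, 82.4 and 64.9 CPM. The Akr1c12 groups did not overlap and the Akr1c13 groups did, by vehicle replicate 1. The log2 fold changes were −0.44 ± 0.25 and −0.53 ± 0.27 (SE), each with an adjusted p of 0.852, and without vehicle replicate 2 they were −0.21 and −0.27. The ratio of Akr1c12 to Akr1c13 stayed between 0.841 and 1.01 across the 6 libraries, and since the counting program was not given in the sources used here, reads from their shared windows may have been counted for either gene.

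Akr1c14, a 3α-hydroxysteroid dehydrogenase, was at 170.4, 391 and 250 CPM in vehicle and at 185.4, 185 and 260.6 CPM in insulin livers, and the groups overlapped. Its log2 fold change was −0.36 ± 0.34 (SE), and without vehicle replicate 2 it was 0.0049. Akr1c20, 92.3% identical to Akr1c6 in coding sequence, had a log2 fold change of −0.68 ± 0.41 (SE) and was at 189 CPM in vehicle replicate 2 against 51.8 to 80.5 CPM in the other 5 libraries, and without that library its log2 fold change was −0.072. All 6 tested Akr1c genes were thus lower with insulin (median −0.60), 5 of 6 without vehicle replicate 2 (median −0.24) and 5 of 6 with the GC offset (median −0.35). The summed Akr1c level was 1627, 4425 and 1821 CPM in vehicle and 1439, 1513 and 1274 CPM in insulin livers.

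**Figure D3:**
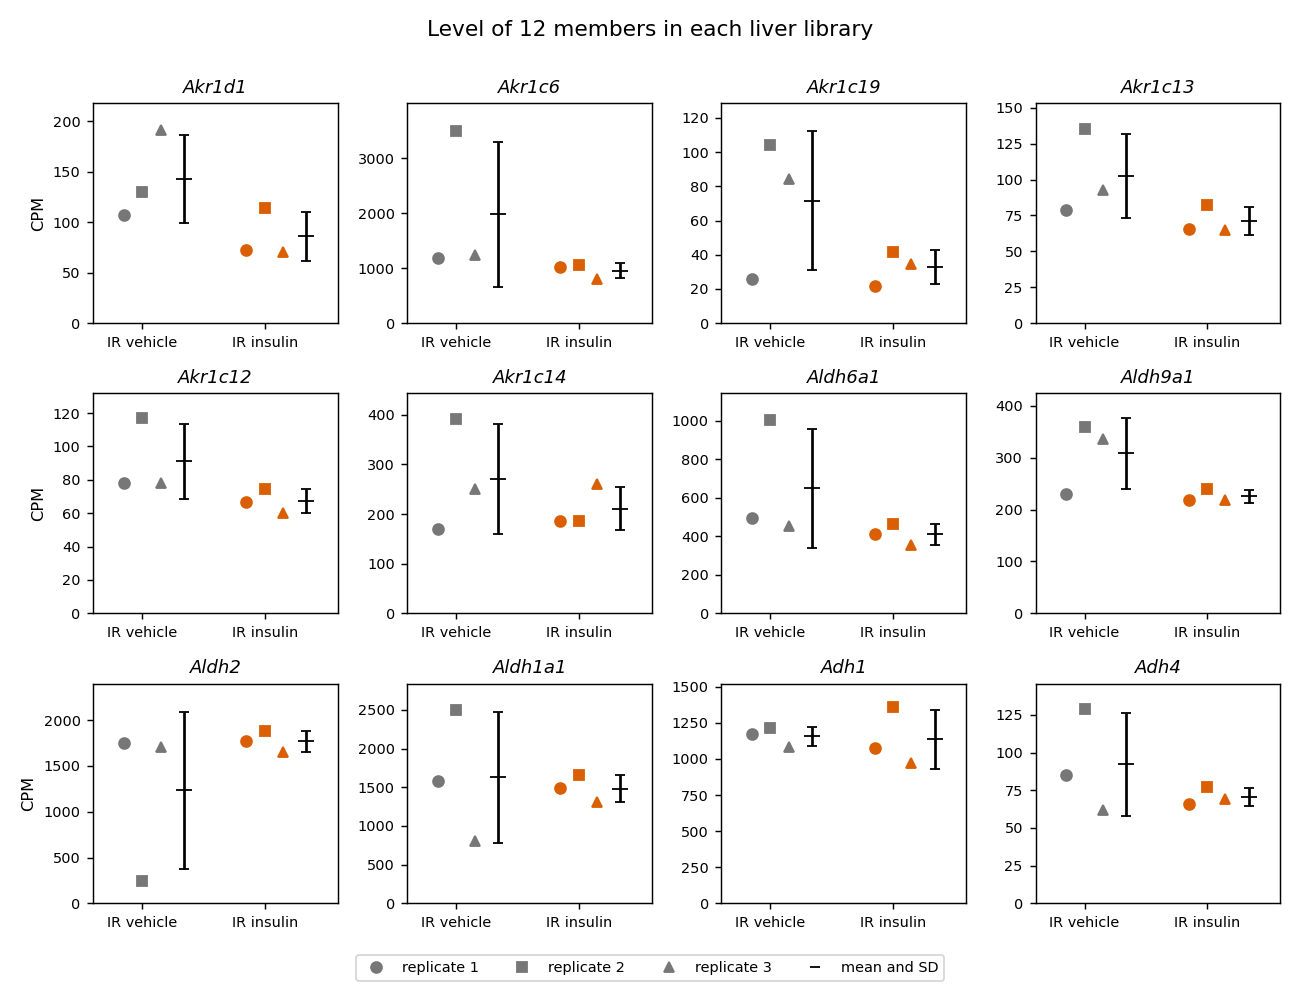
Level in CPM of 12 members in each liver library, with circles, squares and triangles for replicates 1, 2 and 3 of IR vehicle (grey) and IR insulin (orange), and bars for the mean and SD of 3 mice. Vehicle replicate 2 is the highest point for Akr1c6 (3488 CPM), Aldh6a1 (1004 CPM) and Aldh1a1 (2496 CPM) and the lowest for Aldh2 (244.9 CPM).

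The aldehyde and aldose reductases, which reduce sugar and other aldehydes, had small differences. Of 6 tested, 4 were higher and 2 lower (median log2 fold change 0.13), and none was called. The median was 0.032 without vehicle replicate 2, and with the GC offset 3 were higher and 3 lower (median 0.067). Akr1a1, the general aldehyde reductase and the most abundant of them, was at 400.8, 309.5 and 425.9 CPM in vehicle and at 356.3, 385.9 and 333.4 CPM in insulin livers, a log2 fold change of −0.079 ± 0.23 (SE). Akr1b3, the aldose reductase of the polyol pathway, was at 7.53 to 11.6 CPM in all 6 libraries. Akr7a5, which reduces aflatoxin aldehyde, was at 33.8 CPM in vehicle replicate 2 and at 121.5 to 205.1 CPM in the others, and its log2 fold change was 0.069, or −0.38 without that library. Akr1b10 rested on 3 counts in vehicle replicate 2 and on 29 to 49 in the other libraries.

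Among aldehyde dehydrogenases of retinal and acetaldehyde, Aldh2 showed the largest gap between single livers. Aldh2, the mitochondrial enzyme that clears acetaldehyde, was at 1747, 244.9 and 1707 CPM in vehicle and at 1774, 1879 and 1649 CPM in insulin livers. Vehicle replicate 2 was at 0.14 times the median of the other libraries, which all lay close together, and the groups overlapped. The log2 fold change was 0.52 ± 0.62 (SE, adjusted p of 0.858, edgeR), 0.40 with the GC offset and 0.038 without vehicle replicate 2.

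Aldh1a1, the cytosolic retinal dehydrogenase, was at 1586, 2496 and 802.5 CPM in vehicle and at 1484, 1658 and 1305 CPM in insulin livers. The vehicle livers lay on both sides of the insulin livers, and the log2 fold change was −0.14 ± 0.41 (SE), or 0.32 without vehicle replicate 2. Its near copy Aldh1a7 shared this order among vehicle livers, at 170.6, 251.8 and 99.8 CPM, and the ratio of the pair was 8.04 to 11.6 in the 6 libraries. Aldh3a2, which oxidises fatty aldehydes, was likewise highest in vehicle replicate 2 (947.8 CPM) and lowest in vehicle replicate 3 (239.3 CPM), with 446.4 to 533.4 CPM in insulin livers. Aldh1l1, which oxidises 10-formyltetrahydrofolate, had the reverse order, at 821.5, 511.7 and 983.9 CPM in vehicle and 697.9 to 789.4 CPM in insulin livers, with a log2 fold change of −0.053 ± 0.30 (SE).

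The dehydrogenases of amino acid breakdown and synthesis were lower with insulin in 6 of 7 cases, by a median log2 fold change of −0.10, and none was called. Without vehicle replicate 3 they were lower in 4 of 7 cases (median −0.0095), and with the GC offset the median was −0.36. Aldh6a1, the methylmalonate semialdehyde dehydrogenase of valine breakdown, was at 492, 1004 and 451.1 CPM in vehicle and at 411.2, 463.6 and 353.7 CPM in insulin livers. The groups overlapped, with vehicle replicate 2 far above the rest at 2.23 times their median. Its log2 fold change was −0.66 ± 0.35 (SE, adjusted p of 0.852, edgeR), and −0.20 without vehicle replicate 2.

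Aldh9a1, which acts in carnitine synthesis, was at 230.1, 359.7 and 335.5 CPM in vehicle and at 218, 240.5 and 218.2 CPM in insulin livers. Here both vehicle replicates 2 and 3 were above all insulin livers and replicate 1 was not. The log2 fold change was −0.45 ± 0.25 (SE, adjusted p of 0.852, edgeR), and −0.32 without vehicle replicate 2. Aldh8a1, of tryptophan breakdown, had 189.2, 212.8 and 317.5 CPM in vehicle and 177.9, 183.7 and 212.1 CPM in insulin livers, a log2 fold change of −0.33 ± 0.26 (SE), or −0.072 without vehicle replicate 3, its highest library. Aldh4a1, Aldh5a1 and Aldh7a1, of proline, GABA and lysine breakdown, had log2 fold changes of −0.029, −0.049 and −0.10.

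Aldh3b1, which acts on lipid aldehydes, had the smallest p among members that were higher with insulin. It was at 3.01, 1.96 and 2.86 CPM in vehicle and at 4.23, 2.99 and 3.78 CPM in insulin livers, from 32 to 94 counts per library. Only insulin replicate 2 lay below the highest vehicle liver. The log2 fold change was 0.48 ± 0.33 (SE, adjusted p of 0.852, edgeR), 0.32 without vehicle replicate 2 and 0.067 with the GC offset.

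Adh1, the main ethanol-oxidising enzyme of liver, was among the steadiest of the abundant members. It was at 1172, 1212 and 1083 CPM in vehicle and at 1078, 1362 and 968.2 CPM in insulin livers. The groups overlapped fully, and the log2 fold change of −0.024 ± 0.25 (SE) had a 95% interval from −0.52 to 0.47, so a moderate difference in either direction was not detectable with 3 mice per group. Adh5, which clears formaldehyde bound to glutathione, was at 409.4, 495.5 and 520.6 CPM in vehicle and at 416, 421.8 and 344.4 CPM in insulin livers (−0.27 ± 0.23, SE).

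Adh4 had the widest fitted difference of the family, from 85.3, 129 and 62.1 CPM in vehicle to 65.9, 77.1 and 68.9 CPM in insulin livers. Vehicle replicate 3 was below every insulin liver and the other vehicle livers were above, and the log2 fold change was −0.38 ± 0.29 (SE), or −0.057 without vehicle replicate 2. Adh7, a retinol-oxidising enzyme best known from the stomach, was at 35.8, 41.9 and 18.2 CPM in vehicle and at 30.6, 28.1 and 35.2 CPM in insulin livers, with a log2 fold change of −0.031 ± 0.32 (SE). The summed Adh level was 1755 ± 107 CPM in vehicle and 1632 ± 239 CPM in insulin livers (SD, n = 3), and the summed Aldh level 6251 ± 392 and 6096 ± 424 CPM. The summed Akr level was 3325 ± 1431 and 2034 ± 177 CPM, the wide vehicle SD coming with 4964 CPM in vehicle replicate 2 against 2327 and 2684 CPM in the other vehicle livers.

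Members varied more among vehicle than among insulin livers. The coefficient of variation was larger in vehicle for 28 of 32 members, with medians of 36.2% and 11.7%, and for 85.1% of all genes tested, with medians of 36.2% and 12.8%. The exceptions among members were Adh1, Akr1b3, Akr1b8 and Aldh5a1.

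The departure of vehicle replicate 2 followed GC content within these families. A deviation here is the difference in log2 CPM between a library and the median of the remaining 5. All 10 members with a transcript GC content under 45% were above 0 in vehicle replicate 2 (0.28 to 1.73, median 0.93), and all 10 with a GC content over 53% were below 0 (−2.83 to −0.17, median −0.61). Of the 12 between, 9 were above and 3 below. Akr1a1 and Aldh7a1 were in the group over 53% by the coding transcript used here, but at 47.4% and 50.3% by their longest transcript. Of the genes whose first coding bases are shown at the start, Aldh2 (54.8% GC over the transcript) and Akr7a5 (62.5%) were on the low side of this library, at −2.83 and −2.05. Akr1c6 (41.8%) and Akr1d1 (40.9%) were on the high side, at 1.73 and 0.28. Members close to Aldh2 in GC content differed in size, with Aldh1l1 (54.4%) at −0.63, Aldh1b1 (55.5%) at −1.12 and Aldh4a1 (56.7%) at −0.43.

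The 32 members share libraries and depth and are not independent. Across them, deviations of vehicle replicate 2 correlated with GC content at a Pearson's r of −0.76 and a Spearman's rho of −0.85. Over 13367 genes rho was −0.67, but there the GC content was that of the longest transcript, a different measure from that of the members. In the other 5 libraries the members' rho ran from 0.051 to 0.63. All 6 tested Akr1c genes and Akr1d1 belong to the group under 45% GC. With the offset for GC content, 23 members were lower and 9 higher, beside 57.7% of all genes lower (median −0.061). Only 1 member, Aldh9a1, was at an unadjusted p under 0.05 (log2 fold change −0.59, unadjusted p of 0.0472 by edgeR). Over all genes 471 of 13367 were, so the member count is close to the background. The part of GC content in the differences between the groups was not tested further.

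**Figure D4:**
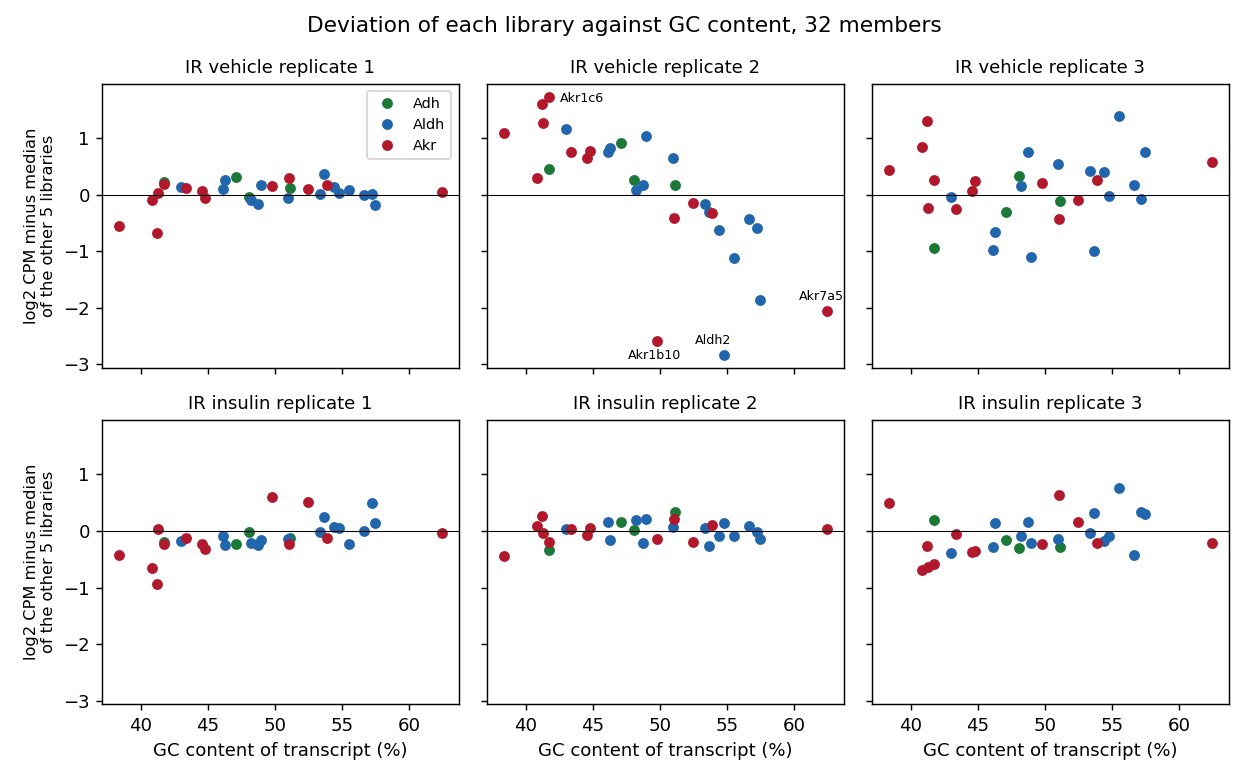
Deviation of each library (difference in log2 CPM from the median of the remaining 5) against GC content of the transcript in percent, for the 32 tested members, 1 panel per library and coloured by family. In vehicle replicate 2 the points run from 1.73 (Akr1c6) at low GC to −2.83 (Aldh2) at high GC, a downward slope that the other 5 panels lack.

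The members called depended on which livers were in the fit. Without vehicle replicate 1, 5 members were at an unadjusted p under 0.05 (Akr1c13, Akr1c19, Akr1c6, Akr1d1 and Aldh9a1, all lower), where 9.81% of all genes were. Without vehicle replicate 3 they were Adh4, Akr1c20, Akr1c6 and Aldh6a1, all lower, with 6.51% of all genes called. Without vehicle replicate 2 they were Akr1d1 and Aldh1a3, both lower, with 3.74% of all genes called, and Aldh1a3 was at 5 to 27 counts per library. Without insulin replicates 1, 2 and 3, members called numbered 0, 1 (Akr1d1) and 0, where 0.727%, 1.05% and 0.875% of all genes were called. No adjusted p of a member passed 0.05 in any of these 6 fits, the smallest being 0.473.

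Promoters of the members were searched for motifs of 2 factors with a place in insulin and aldehyde responses. FOXO proteins are kept out of the nucleus by insulin signalling, and the antioxidant response element binds NRF2. RefSeq promoters (GRCm38.p6, 250 bases before to 50 after the start) matched 35 of the 44 genes. The FOXO motif GTAAACA, on either strand, was found in 5 of 35 genes (14.3%) and in 4.05% of 27025 genes with a promoter. The 5 genes were Akr1b10, Akr1b7, Akr1c12, Akr1c13 and Akr1c21. They are not separate cases, since Akr1b10 and Akr1b7 were also near copies (89.3% identity in coding sequence). Akr1b7 and Akr1c21 were too low to be tested, and Akr1b10 had a higher fitted level with insulin (log2 fold change 0.51). The antioxidant response element TGACNNNGC, on either strand, was found in 5 of 35 genes (14.3%), including Akr1c19 and Aldh9a1, and in 14.0% of all genes with a promoter.

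The FOXO matches of Akr1c12 (chr13:4279406-4279435, minus strand) and Akr1c13 (chr13:4191148-4191177, plus strand) lie in alike stretches 25 and 28 bases before the RefSeq start. The GENCODE models used elsewhere here start these genes further upstream, at chr13:4279433 and chr13:4191150. By those models both motifs lie inside the gene, shortly after its start, and not before it. The stretches are shown because these neighbours are also alike in coding sequence and in level. The motif, which reads on the other strand here, is in capitals.
Akr1c12: ttgatatacaaTGTTTACccacttccgctt
Akr1c13: ttgatagacgaTGTTTACccacttccgctt
Since the genes are near copies, these matches are not separate cases, and a match is a description of letters only.

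Genes that work beside these enzymes were read from 5 lists of partners. Of 17 tested genes of steroid and bile acid ring reduction, 2 were lower at an unadjusted p under 0.05 and none higher (median log2 fold change −0.27). These were Srd5a1, the steroid 5α-reductase type 1, at −0.92 ± 0.32 (SE), and Hsd17b6, a retinol and steroid dehydrogenase, at −0.94 ± 0.36 (SE), each with an adjusted p of 0.852 by edgeR. Srd5a1 was at 24.5, 56.0 and 48.3 CPM in vehicle and at 20.1, 23.0 and 24.9 CPM in insulin livers, overlapping by vehicle replicate 1.

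Of 9 tested genes of ethanol and aldehyde oxidation 7 had a lower fitted level with insulin, and 1 was called at an unadjusted p under 0.05, the aldehyde oxidase Aox3 (−0.98 ± 0.37, SE), at 381.6, 779.9 and 363.3 CPM in vehicle and 248.8, 325.2 and 199.4 CPM in insulin livers, which did not overlap. Hacl1, a peroxisomal lyase that yields fatty aldehydes, had the next smallest p and was at −0.33 ± 0.23 (SE). Of 13 genes of carbonyl reduction and the polyol pathway 11 had a lower fitted level and 1 was called, the glutathione transferase Gsta4 (−1.07 ± 0.45, SE), and Cryl1 was at −1.12 ± 0.52 (SE) without passing. Of 20 retinoid genes none was called (median 0.0035). The smallest p among them belonged to Bco1, which cleaves beta-carotene, at 0.48 ± 0.27 (SE), and the retinol dehydrogenase Rdh7 was at −0.41 ± 0.29 (SE).

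Of 18 genes that make or use the substrates of the Aldh enzymes, 1 was lower at an unadjusted p under 0.05 (median −0.38). Bbox1, of carnitine synthesis and so in the pathway of Aldh9a1, was at 142.2, 317.9 and 194.5 CPM in vehicle and at 136.4, 136.2 and 117.7 CPM in insulin livers, without overlap (−0.75 ± 0.32, SE). Each named partner gene had an adjusted p of 0.852 by edgeR, and the counts of genes called lower stand beside the 1.86% of all genes given above. For Aox3 and Bbox1, the lack of overlap stands beside 6.04% of all genes. Aox3, Bbox1 and Srd5a1 were highest in vehicle replicate 2, and fits without that library are not given here for partner genes. The groups of Hsd17b6 and of Gsta4 overlapped by vehicle replicate 1.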

How the data were processed

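Libraries were built by the authors with NEBNext Ultra RNA reagents for Illumina HiSeq sequencing, and they, per the labels, aligned reads to mm10 with Bowtie2 2.2.3. They deposited whole-number read counts per gene, neither normalized nor pooled. The counting program, annotation release and use of strand were not given in the sources used here, so counts of overlapping genes (Aldh16a1 with Pih1d1, Aldh7a1 with Phax, on opposite strands) and of near copies are uncertain. Counts of Akr1b3 and Aldh4a1 are likewise uncertain, as 56.2% and 45.0% of their 50-base windows occurred in Gm6644 and Gm21969. Gm6644 had 0 counts and Gm21969 had 0 to 1 per library. Table columns were matched to samples by name. P-values rest on the spread between mice (3 per group), estimated per gene for both groups together and moderated across genes. The wider variation among vehicle livers was not modelled separately in the main fit.

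Counts were fitted with edgeR 4.0.16 (R 4.3.3; glmQLFit and glmQLFTest, TMM, filterByExpr minimum count 10, minimum total 15, no covariate), and p-values were adjusted over the 13377 genes kept. SE was derived from the F statistic, and 95% intervals from it by the normal distribution. The fit was tested on simulated data. The study's criteria were an unadjusted p under 0.05 and a log2 fold change of 0.35 or more in size. DESeq2 1.42.0 and limma 3.58.1 (voom) were alternatives. CPM per kb used 1 complete coding transcript per gene (GENCODE release 21, which held 54495 of 54532 genes), whose GC content was used for members. The GC offset came from a loess curve (span 0.5) per library on the GC content of the longest transcript of each gene, which was also used for all genes.

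Named members were, in each family, the 3 with the highest mean CPM, the 4 with the smallest p, those at an unadjusted p under 0.05 and those without overlap; of each partner list, the 2 genes with the smallest p. A partner gene within this rule is not reported here. Other members named were added after their values were seen. The members and lists were chosen with earlier results of these data known. With 3 against 3, the smallest two-sided p of an exact permutation test is 0.1, so none was run.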

Additional observations from a re-analysis of the deposited data

How the results depend on the processing

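In the 14 alternative fits every adjusted p, of members and of all genes, stayed above 0.05. The count of all genes at an unadjusted p under 0.05 was 383, 742 without a filter on low counts, 213 with voom and sample quality weights, and 99 to 1349 with 1 library left out. DESeq2 gave 507. The count of members was 2. It was 3 with DESeq2, with RLE size factors and without the filter, 0 with upper-quartile size factors and with voom, 1 with the GC offset and with the GC offset with replicate block, and 0 to 5 with 1 library left out (0, 1 and 0 without insulin replicates 1, 2 and 3).

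Of 252 values for 18 named members, 198 kept their direction and side of 0.05, 17 lost and 11 gained an unadjusted p under 0.05, and 26 changed sign. The sign changes fell on 6 members. Adh1 was at 0.022 with upper-quartile size factors, 0.012 without the filter and 0.013 with voom, and at −0.17 to 0.091 with 1 library left out. Adh7 was at 0.024, 0.0057, 0.041, 0.25 and 0.27 with upper-quartile size factors, no filter, the replicate block, the GC offset, and the GC offset with the block, and at −0.31 to 0.21 with 1 library left out. Akr1c14 was at 0.0097, 0.011 and 0.0025 with the GC offset, the GC offset with the block and voom, and at −0.60 to 0.0049 with 1 left out. Aldh1a1 was at 0.0036 with the replicate block, 0.012 and 0.098 with the GC offset without and with it, 0.12 with voom, and −0.46 to 0.32 with 1 left out. Akr1a1 and Aldh1l1 ranged from −0.20 to 0.013 and from −0.27 to 0.16 with 1 left out. The Adh median was 0.0090 without the filter, which added Adh6a and Adh6b, and −0.11 there for the 4 Adh genes of the main fit. The Aldh median was 0.012 without vehicle replicate 3, and the cause of this was not tested.

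With the replicate block 321 genes and 1 member (Akr1c19, unadjusted p of 0.0181 by edgeR) were called. Samples with the same number shared no label beyond it, and their deviations correlated at −0.039, 0.069 and 0.017, so the numbers were not taken as pairs. Low counts limit Akr1b10, Aldh18a1 and Aldh3b1, and 3 mice per group limit all values.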
